A study of Homo sapiens with 14 samples.

Results

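The regions described here were 8982 stretches of open chromatin of the multiple myeloma (MM) line RPMI8226 that were called in 4 of its 5 libraries and that overlapped no peak of the second MM line, MM.1S. They were taken from a list of 79969 RPMI8226 reference peaks, and both lines together had 152771. Members were chosen by values measured in these libraries, namely the number of libraries in which a peak was called and the absence of an MM.1S peak at 1 bp or more, on chromosomes 1 to 22. RPMI8226-only peaks called in 3 libraries (7476) and in 5 libraries (12742) served for comparison, and members made up 30.8% of the 29200 RPMI8226-only peaks. MM cells were grown alone (MONO), or with HS5, a human bone marrow stromal line, either above a membrane in the upper transwell (TSW) or in the lower chamber with the stromal cells (CO). RPMI8226 had 1 MONO, 2 TSW and 2 CO libraries, and MM.1S had 3 of each. Omni-ATAC, in which a transposase cuts open chromatin, was run on MM cells sorted as CD90-CD38+, and the labels name no drug and no genetic change for any group.

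The lists give 1 number a peak and no reads, so a member may have lacked a call in the MONO library or in any of the 4 coculture libraries, and these cannot be told apart. No level, fold change or comparison of culture conditions could be computed, and the lists hold no library depth. Of the 12 plasma cell genes used to check the cell type, 12 had an RPMI8226 reference peak at a promoter, beside 10 of 20 bone marrow stromal genes. Peaks are not independent replicates, and 95% intervals below cover counting error only.

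Distal open chromatin in blood cells often holds enhancers, and the short sequences under such peaks are bound by transcription factors. AP-1 is a dimer of FOS, JUN and BATF proteins that binds TGACTCA or TGAGTCA. MAF proteins bind a longer form of the same element, and STAT, NF-kB and ETS proteins bind other short words. RPMI8226 is known for high MAF expression through a translocation of the MAF gene.

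The central 200 bp of 5 members are printed first because they hold the AP-1 match on which the results turn. They come from the densest groups of members and then from the genes with the most members, each time the member with the most AP-1 matches. All are the plus strand of hg38, 5′ to 3′, and capitals mark the AP-1 match.
HLX cluster member, chr1:221026090-221026289: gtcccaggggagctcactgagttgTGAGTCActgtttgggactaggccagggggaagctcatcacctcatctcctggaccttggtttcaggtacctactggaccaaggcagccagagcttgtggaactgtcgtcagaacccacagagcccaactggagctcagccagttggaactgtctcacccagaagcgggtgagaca
ZNF184 cluster member, chr6:27608978-27609177: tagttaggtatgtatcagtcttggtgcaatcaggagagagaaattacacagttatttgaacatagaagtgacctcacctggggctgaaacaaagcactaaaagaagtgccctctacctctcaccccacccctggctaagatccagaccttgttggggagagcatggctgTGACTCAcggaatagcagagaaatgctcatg
TBL1XR1 member, chr3:176590823-176591022: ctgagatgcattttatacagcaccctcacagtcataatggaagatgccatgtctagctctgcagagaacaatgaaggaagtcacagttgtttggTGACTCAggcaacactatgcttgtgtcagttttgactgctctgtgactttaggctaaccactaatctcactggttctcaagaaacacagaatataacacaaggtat
HLX member outside the cluster, chr1:220990526-220990725: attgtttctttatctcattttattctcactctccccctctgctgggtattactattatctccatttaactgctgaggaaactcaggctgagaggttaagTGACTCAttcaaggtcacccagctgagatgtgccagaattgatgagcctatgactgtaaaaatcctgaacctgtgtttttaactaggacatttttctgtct
TENM3 member, chr4:180091795-180091994: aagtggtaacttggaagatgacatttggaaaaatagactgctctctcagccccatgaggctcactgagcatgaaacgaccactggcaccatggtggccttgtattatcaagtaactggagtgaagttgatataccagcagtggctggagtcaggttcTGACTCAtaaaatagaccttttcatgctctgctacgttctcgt

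Each of these 5 windows held 1 AP-1 match. The HLX window outside the cluster lay 111.2 kb from the start site of HLX, and also held an E-box and a GATA match. The TBL1XR1 and TENM3 windows lay 637.1 kb and 2052.1 kb from the start sites to which they were assigned, so a nearest gene here is a position and not a target.

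A further window, chosen after its value was seen, holds the most AP-1 matches among members at the 12 leading genes.
CDYL member, chr6:4487628-4487827: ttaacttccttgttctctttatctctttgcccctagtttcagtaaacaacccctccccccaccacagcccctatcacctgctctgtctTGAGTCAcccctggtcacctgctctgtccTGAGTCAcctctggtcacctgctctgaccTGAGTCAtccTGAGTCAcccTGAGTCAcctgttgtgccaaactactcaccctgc

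The CDYL window lay 218.4 kb upstream of the start site of CDYL, its nearest protein-coding start, in an annotated intron on chromosome 6. Its peak was within 2500 bp of another annotated start site, so it is not among the distal members below. The window held 5 AP-1 matches, and the match recurred inside a repeated unit of the reference sequence. Among all 8982 members 9 had 4 or more matches, whereas 1 of 7476 peaks called in 3 libraries and 2 of 12742 peaks called in 5 libraries did.

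Members were intermediate in width. Their median was 263 bp (quartiles 204 and 347), against 212 bp (170 and 288) for peaks called in 3 libraries and 376 bp (280 and 513) for peaks called in 5. Width comes from the same peak calls as the number of libraries and is given as a description. Members covered 2.63 Mb in all. Median GC content of the central window was 47.0% in members, 47.0% in peaks of 3 libraries and 48.0% in peaks of 5. The median gap from a member to the nearest MM.1S peak was 9.95 kb. Just inside the rule, 23 members lay 100 bp or less from an MM.1S peak, and just outside it, 4 RPMI8226 peaks called in 4 libraries overlapped one by 20 bp or less. In all, 832 members (9.26%) lay within 1 kb of an MM.1S peak, compared with 9.55% of peaks in 3 libraries and 7.92% in 5.

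No difference in location from either neighbouring class passed the test. A peak within 2500 bp of an annotated start site was called a promoter peak, and every other peak was distal. Promoter peaks were 1981 of 8982 members (22.1%), 21.9% of peaks of 3 libraries and 23% of peaks of 5. The odds ratio of a promoter position was 1.01 (0.936 to 1.09) over peaks of 3 libraries and 0.948 (0.888 to 1.01) over peaks of 5. Distal introns held 42.7% of members, distal intergenic sequence 33% and distal exons 2.24%. None of 8 tests of location passed a Benjamini-Hochberg adjusted p of 0.05 (two-sided Fisher's exact test, 0% called), and the smallest adjusted p was 0.190, for distal exons against peaks of 3 libraries, where the share was 2.80% and the unadjusted p of 0.0238 was the only one below 0.05. With a promoter window of 1000 bp, promoter peaks were rarer among members than among peaks of 5 libraries (odds ratio 0.859, adjusted Fisher p = 0.00182). With start sites of protein-coding genes only, distal exons were (odds ratio 0.806, adjusted Fisher p = 0.0147). The median distance to the start site of a protein-coding gene was 51.6 kb for members, 56.2 kb for peaks of 3 libraries and 54.7 kb for peaks of 5.

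Sequence separated members from both neighbouring classes. An AP-1 match lay in the central 200 bp of 1889 of 7001 distal members, a share of 27.0%. That share was 19.5% (1141 of 5838) for peaks of 3 libraries and 19.6% (1922 of 9812) for peaks of 5. In this window it was thus highest at the middle value and almost equal on either side of it. The odds ratio was 1.52 (1.40 to 1.65) over peaks of 3 libraries and 1.52 (1.41 to 1.63) over peaks of 5. The 3 shares in the central window were known before the comparison was set up and are given as a description with no p. The near equality was seen in the fixed window, and peak width differed between the classes. With whole peaks scanned, the shares were 21.9% for 3 libraries, 31.5% for members and 27.8% for 5, and the odds ratio over 5 libraries was 1.20.

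**Figure D1:**
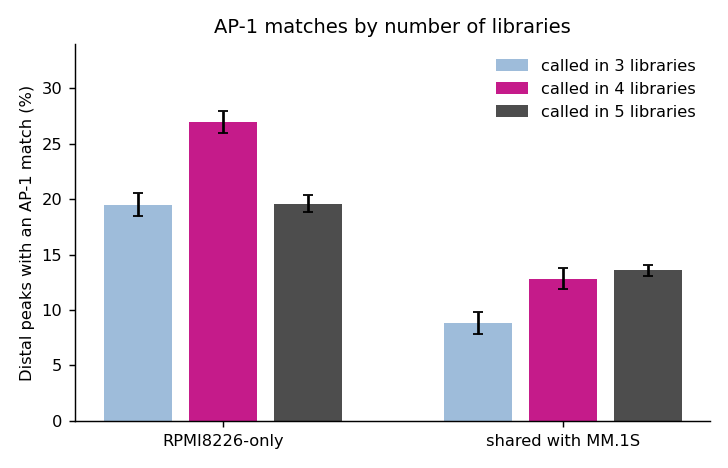
Percent of distal peaks (y axis) with an AP-1 match in the central 200 bp, for RPMI8226-only peaks and for peaks shared with MM.1S (x axis), by number of RPMI8226 libraries; bars start at 0 and error bars are 95% Wilson intervals over peaks. RPMI8226-only peaks of 4 libraries stand at 27.0%, above 19.5% and 19.6%, and shared peaks go from 8.79% to 12.8% and 13.6%.

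RPMI8226 peaks that overlapped an MM.1S peak showed another order. Their AP-1 shares were 8.79% at 3 libraries, 12.8% at 4 and 13.6% at 5. Among them the odds ratio of 4 over 3 libraries was 1.53 (1.31 to 1.78), about that of the RPMI8226-only peaks, and the ratio of both odds ratios was 0.996 (0.836 to 1.19). The odds ratio of 4 over 5 libraries was 0.935 (0.849 to 1.03) among shared peaks, and here the ratio of odds ratios was 1.62 (1.44 to 1.83). In the central window, the higher share over peaks of 3 libraries was thus seen in both kinds of peak. The higher share over peaks of 5 libraries was seen in RPMI8226-only peaks. These ratios were not adjusted for width or GC content. Shared peaks of 5 libraries had a median width of 485 bp and a median GC content of 54.0%. Shared peaks of 4 libraries had 293 bp and 50.0%.

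The AP-1 share of members depended on width. It was 22.2% in members of 101 to 180 bp, 31.0% at 181 to 220 bp, 31.5% at 221 to 260 bp and 31.0% at 261 to 300 bp, and then dropped to 26.7% at 301 to 400 bp, 18.6% at 401 to 600 bp and 14.5% above 600 bp. Peaks of 3 libraries had 22% in the narrowest class, beside 22.2% for members, and peaks of 5 libraries had 16.1%. From 181 bp on, members had the highest share in every class, but not always beyond the intervals. Those of members overlapped those of peaks of 3 libraries at 181 to 220 bp and above 600 bp. They overlapped those of peaks of 5 libraries at 261 to 300 bp and above 600 bp. At 261 to 300 bp the shares were 14.3% for 3 libraries, 31.0% for 4 and 26.2% for 5. At 401 to 600 bp members (18.6%) and peaks of 5 libraries (17.8%) had overlapping intervals, and peaks of 3 libraries had 7.89%. Within peaks of 200 to 400 bp the odds ratio was 2.04 over 3 libraries and 1.43 over 5, and with log2 width and GC content in a logistic model it was 1.67 and 1.29.

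**Figure D2:**
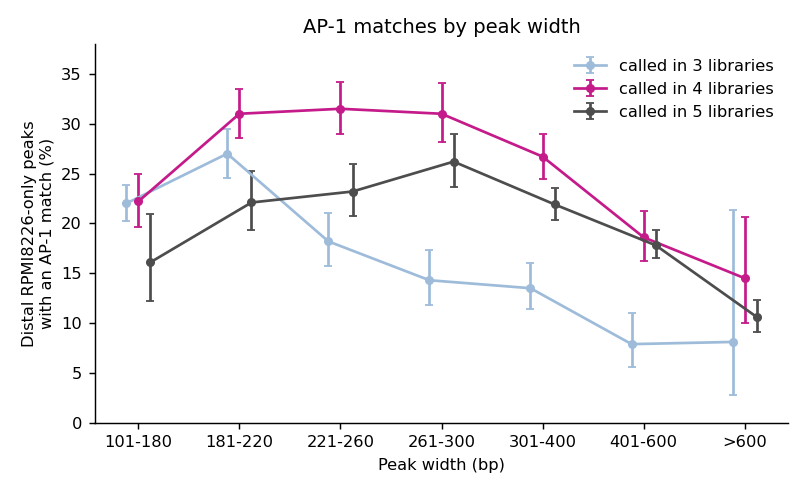
Percent of distal RPMI8226-only peaks with an AP-1 match (y axis) by peak width in bp (x axis) for peaks of 3, 4 and 5 libraries; points are shares and error bars 95% Wilson intervals. Members sit near 31% from 181 to 300 bp, while peaks of 3 libraries drop from 27.0% to 14.3% over the same widths.

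The higher AP-1 share was spread over the genome. It was above that of peaks of 3 libraries on 21 of 22 chromosomes and above that of peaks of 5 libraries on 21 of 22. The exception was chromosome 16 in both cases, with 19.4% of 186 members, 19.4% of 160 peaks of 3 libraries and 23.3% of 309 peaks of 5. On some chromosomes the margin was narrow and the intervals overlapped. Chromosome 22 had 22.7% for members, 22.4% for peaks of 3 libraries and 22.2% for peaks of 5. The highest share of members was 30.7%, on chromosome 21. By location, the share of members with AP-1 was 28.4% in distal introns, 25.4% in distal intergenic sequence and 24.1% in promoter peaks, where peaks of 3 and 5 libraries had 18.4% and 17.2%. Members with an MM.1S peak within 1 kb had 31.0% and the other members 26.7%. GC content moved the share more than location did, from 30.3% of members at 45 to 50% GC to 16.4% above 55% GC, where peaks of 3 and 5 libraries had 11.5% and 11.8%. More than 1 match lay in 2.97% of distal members, 1.68% of peaks of 3 libraries and 1.19% of peaks of 5. The median distance of a match from the peak centre was 37 bp in members, 33 bp in peaks of 3 libraries and 41 bp in peaks of 5.

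The extended AP-1 element that MAF proteins bind did not pass the test in either comparison. GCTGACTCA or GCTGAGTCA, searched on both strands and always containing an AP-1 match, lay in 3.71% of distal members, 3.13% of peaks of 3 libraries and 3.63% of peaks of 5, with odds ratios of 1.19 (0.983 to 1.44) and 1.02 (0.870 to 1.21) and adjusted p of 0.189 and 0.904. Of the distal members with AP-1, 13.8% had the extended form, against 16.0% and 18.5% in the other classes. The MAF half-site TGCTGAC lay in 5.33% of distal members and 5.86% of both other classes. AP-1 without the extended form lay in 23.3% of members, 16.4% of peaks of 3 libraries and 16.0% of peaks of 5.

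Among all 20 motifs, 3 were more frequent in members than in peaks of 3 libraries (15.0% called) and 1 was less frequent (5.00% called). Against peaks of 5 libraries 7 were more frequent (35.0% called) and 2 less (10.0% called). AP-1 is one of the 3 and one of the 7, but its shares were known beforehand, so its place in these counts is a description. The adjustment ran over both comparisons of all 20 motifs, AP-1 included, and was not rerun on these peaks without AP-1. Calls close to the limit, such as RUNX over peaks of 3 libraries (adjusted Fisher p = 0.0455), may rest on that inclusion. GAGGAAGT, a word bound by PU.1 and related ETS factors of blood cells, was the only other motif above both classes. It lay in 468 distal members (6.68%), 5.45% of peaks of 3 libraries (odds ratio 1.24, 1.07 to 1.44, adjusted Fisher p = 0.0174) and 5.30% of peaks of 5 (odds ratio 1.28, 1.13 to 1.46, adjusted Fisher p = 0.00154). The difference from 3 libraries passed the test under all 6 alternatives. The difference from 5 libraries passed it in 3 of 6 and did not with width and GC content in the model (odds ratio 1.01, adjusted Wald p of 0.881).

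Of the 468 distal members with the ETS word 14.5% (11.6 to 18) held AP-1, and of the other 6533 distal members 27.9% (26.8 to 29.0) did. In peaks with the ETS word the AP-1 share was 14.5%, 14.5% and 14.2% for 3, 4 and 5 libraries, about level across the 3 classes. In distal peaks without an AP-1 match, an alternative chosen after seeing the data, the ETS odds ratio was 1.38 over 3 libraries (adjusted Fisher p = 9.24e-04) and 1.42 over 5 (adjusted Fisher p = 2.35e-05).

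TTCCNGGAA, bound by STAT proteins downstream of IL-6, lay in 67 distal members (0.957%), 0.377% of peaks of 5 libraries and 0.668% of peaks of 3. The odds ratio over 5 libraries was 2.55 (1.71 to 3.82, adjusted Fisher p = 3.18e-05), and it passed the test under all 6 alternatives, with values from 1.55 to 3.69. Over 3 libraries it was 1.44 (0.967 to 2.14, adjusted Fisher p = 0.189). The NF-kB word GGANTTTCC lay in 1.66% of members and 1.18% of peaks of 5 libraries (odds ratio 1.41, adjusted Fisher p = 0.0357), and passed the test in 1 of 6 alternatives. The ATF::CEBP word TGATGNAA lay in 4.69% and 3.63% (odds ratio 1.31, adjusted Fisher p = 0.00376), and the GATA word AGATAA in 9.34% and 7.81% (odds ratio 1.22, adjusted Fisher p = 0.00276). Both lost the call in peaks of 200 to 400 bp, and both odds ratios were under 1 when whole peaks were scanned. The RUNX word TGTGGTTT, at 4.91%, was more frequent than in peaks of 3 libraries (4.01%, adjusted Fisher p = 0.0455) and lost that call in 3 of 6 alternatives.

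Other motifs were less frequent in members. CAGCTG, the E-box of E proteins, lay in 15.4% of distal members and 19.2% of peaks of 5 libraries (odds ratio 0.765, 0.704 to 0.830, adjusted Fisher p = 1.65e-09), and this passed the test under all 6 alternatives. Peaks of 3 libraries had 16.6% (adjusted Fisher p = 0.175). GGGCGGGG, bound by SP and KLF factors, lay in 0.700% of members and 1.12% of peaks of 5 libraries (adjusted Fisher p = 0.0234), a call lost with width and GC content in the model (adjusted Wald p of 0.555). The motif of CTCF, the insulator protein, lay in 0.928% of members, below the 1.63% of peaks of 3 libraries (odds ratio 0.567, adjusted Fisher p = 0.00276) and above the 0.581% of peaks of 5 (odds ratio 1.60, adjusted Fisher p = 0.0355). Neither CTCF call remained with width and GC content in the model, where both odds ratios were under 1 (0.869 and 0.894).

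**Figure D3:**
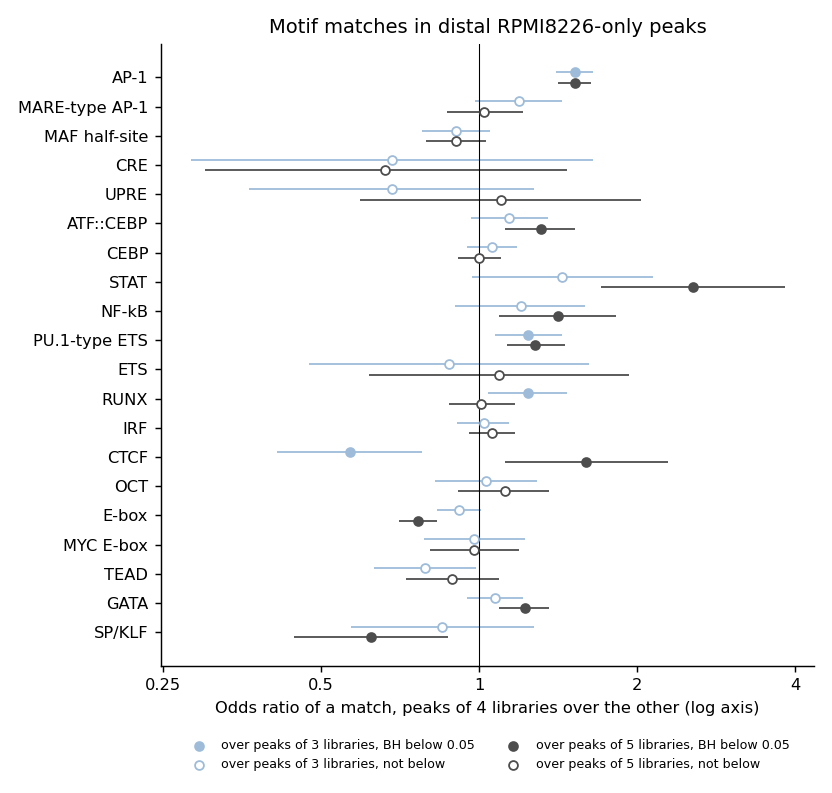
Odds ratio of a motif match in distal RPMI8226-only peaks of 4 libraries over those of 3 or of 5 libraries (x axis, log scale) for 20 motifs (y axis); lines are 95% Woolf intervals and filled points have a Benjamini-Hochberg adjusted p below 0.05. AP-1 stands at 1.52 in both comparisons, STAT at 2.55 over peaks of 5 libraries and the E-box at 0.765. The AP-1 points are a description, since its shares were known beforehand.

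A scan of all 11473 octamers found in 150 or more distal windows, chosen after seeing the data, was led by AP-1 words. Against peaks of 3 libraries 23 octamers were more frequent in members (0.200% called), and 80 were against peaks of 5 (0.697% called). Less frequent in members were 8 octamers against peaks of 3 libraries and 286 against peaks of 5. Of the 14 octamers above both classes, 10 held an AP-1 word or 6 letters of one. GTGAGTCA led, in 9.06% of members, 6% of peaks of 3 libraries and 5.47% of peaks of 5. ATGACTCA lay in 11.3%, 7.98% and 7.53%. AGGAAGTA, an ETS-type word, lay in 3.94%, 2.69% and 2.80%. In windows with no AP-1 match, 5 of 5770 heptamers were above both classes, and AGGAAGT led with 17.7%, 13.9% and 12.5%. TGAATCA lay in 7.57%, 5.71% and 4.98% of these windows.

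No chromosome stood apart. The share of members among the RPMI8226-only peaks of a chromosome ran from 27.4% on chromosome 19 to 33.7% on chromosome 17. None of 22 chromosomes passed the test (two-sided Fisher's exact test, 0% called, smallest adjusted Fisher p = 0.232, for chromosome 2), and 4 had an unadjusted p under 0.05.

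The class of a member told little of the class of the peak next to it. The nearest other RPMI8226-only peak had also been called in 4 libraries for 31.5% of members, close to the 30.8% that members make up of all RPMI8226-only peaks, and it was a peak of 5 libraries for 43.4% and of 3 for 25.1%. The median distance to it was 16.7 kb for members, 18.9 kb for peaks of 3 libraries and 14 kb for peaks of 5. With at most 25 kb between consecutive members, 2582 members (28.7%) fell into 1134 clusters of 2 or more, against 21.4% of peaks of 3 libraries and 42.9% of peaks of 5. The number of peaks in each class differs, and this alone moves such shares. Only 245 clusters had 3 or more members, and none more than 6.

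Each of the 4 largest clusters, beside LYVE1, ATXN1, HLX and ZNF184, had 6 members. On chromosome 11, 6 members spanned 45.2 kb (10561109 to 10606336) between the start sites of RNF141, a RING finger gene, and LYVE1, a hyaluronan receptor gene, with 1 peak of 5 libraries and no shared peak among them. On chromosome 6, 6 members spanned 45.2 kb (16684441 to 16729670) of introns of ATXN1, the gene of ataxin 1, with 3 peaks of 5 libraries. On chromosome 1, 6 members spanned 48.6 kb (221026020 to 221074655) of intergenic sequence downstream of HLX, a homeobox gene of blood cell development, and 2 of them held AP-1. On chromosome 6, 6 members spanned 61.5 kb (27547728 to 27609178) upstream of ZNF184, a zinc finger gene, with 2 peaks of 5 libraries and 3 shared peaks.

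Of 19103 protein-coding genes 5182 were the nearest gene of a member (27.1% called). Most had few, with a median of 1.00 among genes with any, and 222 genes had 5 or more. TBL1XR1, a subunit of the NCoR and SMRT corepressor complexes, had the most, 22 members, from 21.4 kb to 1270.4 kb away. It also had 17 peaks of 3 libraries and 42 of 5, so members were 27.2% of its RPMI8226-only peaks, under the 30.8% of all. HLX followed with 12 members of 25, and TENM3, a teneurin cell-surface gene, with 12 of 31. CDYL, a chromodomain corepressor gene, had 11 of 20. ARRDC3, an arrestin-domain gene, had 10 of 20, and BCL11A, a repressor of fetal globin needed in lymphoid cells, had 10 of 18. NAALADL2 had 10 of 35 and RAB3C, a small GTPase of vesicle transport, 10 of 22. NAMPT, the enzyme of NAD salvage, had 10 of 14. ARHGEF28 had 9 of 16, ATXN1 9 of 19 and DUSP10, a phosphatase acting on JNK and p38, 9 of 24.

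**Figure D4:**
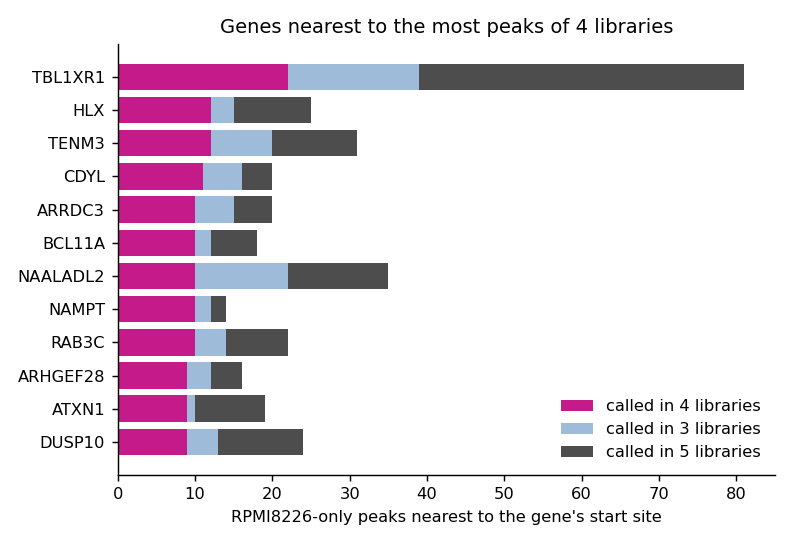
Number of RPMI8226-only peaks (x axis) nearest to each of the 12 genes with the most members (y axis), split by the number of libraries. TBL1XR1 has 22 members among 81 peaks, and NAMPT 10 among 14.

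No gene passed the test of its share of members. Of 1793 genes with 5 or more RPMI8226-only peaks, 0 were called (two-sided Fisher's exact test, 0% called), 48 had an unadjusted p under 0.05, and in 41 of those the share of members was above that of the other genes. The smallest p was that of OR11H1, named here after its value was seen, an olfactory receptor gene on chromosome 22 with 9 members among 10 peaks (Fisher p = 1.78e-04, adjusted Fisher p = 0.319). These 9 lay between 10739846 and 15330724, from 197.6 kb to 4788.3 kb from the start site of the gene, and 1 held AP-1. NAMPT came next (10 of 14, unadjusted Fisher p = 0.00206, adjusted p = 1.00).

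The 10 NAMPT members lay upstream, 18.3 kb to 176.6 kb from the start site, and none lay inside the gene. HLX members lay from 29.4 kb to 389.0 kb downstream of its start, and 4 of 12 held AP-1. At DUSP10, named here for its count of AP-1, 6 of 8 distal members held AP-1, the highest such count of any gene. All 9 DUSP10 members lay upstream, from 39.2 kb to 252.3 kb, and both sides of the gene had peaks of 5 libraries. At CDYL members lay on both sides of the start site, from 259.0 kb upstream to 106.1 kb downstream.

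**Figure D5:**
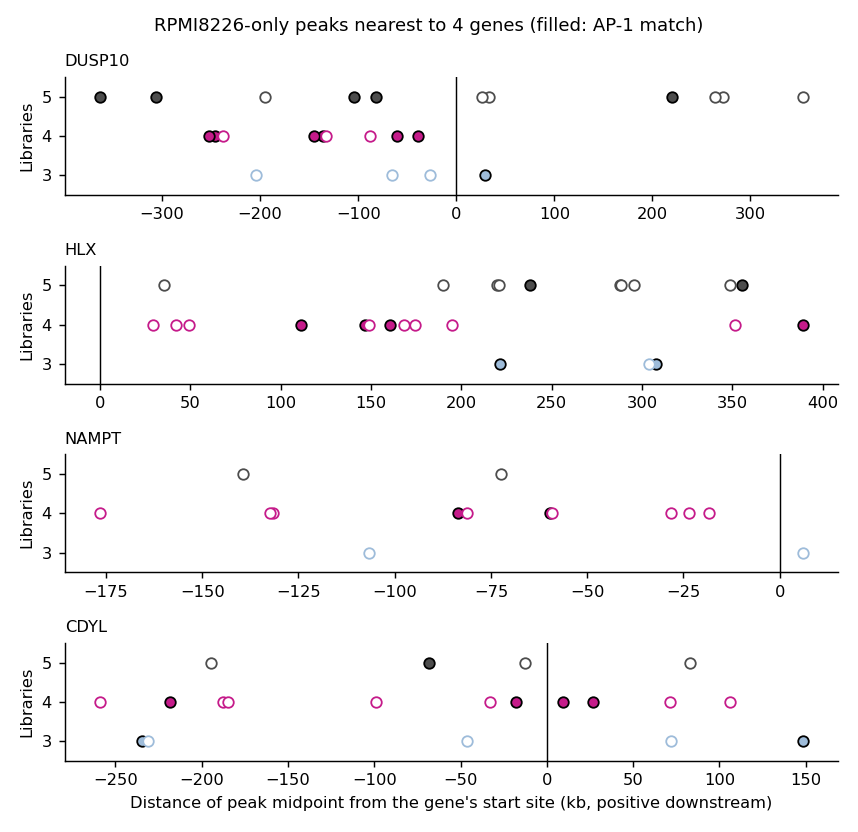
RPMI8226-only peaks nearest to DUSP10, HLX, NAMPT and CDYL by distance of the peak midpoint from the start site in kb (x axis, positive downstream) and number of libraries (y axis); filled points hold an AP-1 match in the central 200 bp. Members of DUSP10 and NAMPT lie upstream, those of HLX downstream and those of CDYL on both sides.

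The genes of the factors themselves had 0 to 4 members each. Of 10 AP-1 subunit genes 7 were the nearest gene of a member, 70% beside 27.1% of all protein-coding genes. Here and below, the 27.1% also counts genes with no RPMI8226-only peak, which could have no member. It therefore does not separate members from RPMI8226-only peaks of other classes. No list was tested as a whole for its share of members. The AP-1 subunit genes had 9 members among 20 RPMI8226-only peaks. JUNB had 2 of 3 and JUND 2 of 2, FOSL1, FOSL2, JUN, BATF and BATF3 had 1 each, and FOS had 0 of 3. Of 12 genes of the MAF and cap'n'collar family 7 had members (58.3%), 15 of 58 peaks or 25.9%. MAF had 4 of 22, with 14 peaks of 5 libraries, NFE2L3 had 4 of 9 and BACH1, a repressor of antioxidant genes, 3 of 11. Of 3 MAF targets CCND2, a cyclin gene, had 1 of 1, CCR1, a chemokine receptor gene, 2 of 7, and ITGB7 no RPMI8226-only peak.

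Of 12 plasma cell and B cell factors 10 had members (83.3%, beside the 27.1% of all protein-coding genes). Members were 15 of their 49 RPMI8226-only peaks, or 30.6%, about the 30.8% of all such peaks. MEF2C had 4 of 13, while IRF4 and PRDM1, both needed for plasma cells, had 2 of 5 and 2 of 4, and EBF1, an early B cell factor, had 1 of 7. Of 9 drug resistance genes that the study names 7 had members (77.8%), 14 of 46 peaks. CDK6, a cell cycle kinase, had 4 of 9, RUNX3 4 of 7 and SGK1, a kinase induced by glucocorticoids, 2 of 11. Of 13 genes of IL-6, JAK and STAT signalling 7 had members (53.8%), 9 of 22 peaks, with STAT3 at 1 of 1 and SOCS3, a feedback inhibitor, at 1 of 2. Of 16 NF-kB genes 5 had members (31.2%), 6 of 20 peaks, led by MAP3K14, the kinase of the alternative pathway, with 2 of 3. TNFRSF13B had 0 of 6, all of them called in 5 libraries. Of 12 adhesion genes 8 had members (66.7%), 13 of 47 peaks, with ITGA4, an integrin of stromal adhesion, at 3 of 7 and CXCR4, the CXCL12 receptor, at 2 of 13.

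The median was 1.00 member in each of these lists but NF-kB, where it was 0, as it was over all protein-coding genes. Members made up 25.9% to 45% of the RPMI8226-only peaks of these lists, beside 30.8% overall. The stromal genes had 21 members among 58 peaks (36.2%), on 7 of 20 genes, with COL5A1, a fibrillar collagen gene, at 6 of 10, CXCL12 at 5 of 16, and FN1 and PDGFRA at 3 of 5 and 3 of 7. Others had RPMI8226-only peaks but no member, with COL6A1 and DCN at 0 of 4, ACTA2 at 0 of 2, and PDGFRB and LOX at 0 of 1. The rest of those without a member had no RPMI8226-only peak. The part of residual HS5 cells in the member list was not tested. The plasma cell markers had 11 members among 23 peaks (47.8%), on 7 of 12 genes, with JCHAIN, the joining chain of IgA and IgM, at 2 of 2. None of the listed genes with 5 or more RPMI8226-only peaks passed the test of its share.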

How the data were processed

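Omni-ATAC libraries were made from MM.1S and RPMI8226 cells grown alone or with HS5 cells and sorted afterwards. By the study's methods and processing notes, the authors aligned reads to hg38 with Bowtie2, kept uniquely mapped reads and 1 read a position, called peaks with MACS3, and listed peaks present in enough libraries. The deposited lists hold an interval and 1 unnamed whole number, in a unit other than reads and with no normalization by the authors, read here as the number of libraries with the peak. Its range in each list fits that reading. The peak threshold, the joining of edges and any transposase shift are not given in the sources used here. Depth could not be read from the lists, and the library totals that the study gives were not used here, so the precision rests on numbers of peaks.

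Starts were read as counted from 0, and positions are printed from 1. RPMI8226-only peaks were those with no MM.1S overlap of 1 bp. Gene models came from GENCODE 44. The nearest gene was the protein-coding gene with the nearest start site to the peak midpoint. Motifs were consensus matches on both strands in the central 200 bp, and none of the windows held an undetermined base. The 20 motifs were AP-1, its extended form, the MAF half-site, CRE, UPRE, ATF::CEBP, CEBP, STAT, NF-kB, 2 ETS words, RUNX, IRF, CTCF, OCT, 2 E-boxes, TEAD, GATA and SP/KLF. Shares were compared by two-sided Fisher's exact tests with Benjamini-Hochberg adjustment over all features tested (SciPy 1.17.1). The logistic model used statsmodels 0.14.6. Shares have Wilson intervals and odds ratios Woolf intervals. The tests and the motif search were tested on simulated data.

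Groups came from the sample titles. Genes named were the 12 nearest to the most members, genes past the test, and fixed lists, and regions were the 5 clusters with the most members. Members, lists, motifs and rules were chosen with earlier results of these data known. Whether peak midpoints fell in repeats was not analysed here. PIM2, on chromosome X, was left out of the list counts. Some items that these rules select are not reported here.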

Additional observations from a re-analysis of the deposited data

How the results depend on the processing

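AP-1 remained more frequent in members under all 5 alternatives tried for it, with odds ratios from 1.5 to 2.04 over peaks of 3 libraries and from 1.20 to 1.52 over peaks of 5. Counts of motifs were less stable. When whole peaks were scanned, so that wider peaks offered more sequence, 11 motifs were more frequent in members than in peaks of 3 libraries, and 2 were more and 11 less frequent than in peaks of 5. The odds ratios over 5 libraries then turned to 0.924 for ATF::CEBP, 0.909 for NF-kB, 0.819 for RUNX and 0.779 for GATA. With log2 width and GC content in the model, 4 were more and 1 less frequent than in peaks of 5 libraries, and the CTCF odds ratio turned to 0.894. In peaks of 200 to 400 bp, 0 were less frequent than in peaks of 3 libraries, and 2 were more and 1 less frequent than in peaks of 5. With no MM.1S peak within 1 kb, 1 was less frequent than in peaks of 5 libraries. In peaks with no AP-1 match, an alternative chosen after seeing the data, 1 was more and 2 less frequent than in peaks of 3 libraries. A promoter window of 1000 bp gave 1 location call, and start sites of protein-coding genes only gave 1. A gap of 10 kb gave 603 clusters with 14.2% of members, and a gap of 50 kb put 45% of members in clusters. The cause of these changes was not tested. Whole peaks add sequence, and some alternatives hold fewer peaks. There were 9068 members when a peak counted as RPMI8226-only with under 50% of it covered, and 8150 with no MM.1S peak within 1 kb. Chromosome and gene tests gave 0 calls under every alternative tried.

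No paired analysis was possible because the lists hold no value for a single library, and leaving out a library was not possible for the same reason. The soft-masked class of the location comparison was not run, since the genome used here is in capitals throughout. Numbers of peaks limit the rarer motifs. The lists hold no library depth, and the part of depth in which peaks had 4 calls was not tested.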
